A study of Mus musculus with 5 samples.

Results

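The 9 genes described here code for secreted growth factors of the transforming growth factor beta (TGF-beta) superfamily, a receptor and secreted antagonists, and were taken by their symbols from the 27998 genes listed in the deposited count files. They are the TGF-beta ligands Tgfb1, Tgfb2 and Tgfb3, the bone morphogenetic protein (BMP) family ligands Bmp2, Bmp4 and Gdf5, the receptor Tgfbr2 and the BMP antagonists Grem1 and Chrdl1. All 9 symbols matched a single row each. Their unique molecular identifiers (UMIs), each of which stands for 1 captured transcript, were followed by cell class in 5 single-cell RNA-seq libraries of the mouse temporomandibular joint (TMJ) disc, the fibrocartilage that cushions the jaw joint. There was 1 library per group. The normal groups were C57BL/6 wild-type discs from newborn mice of 3 d, juvenile mice of 3 w, adult mice of 16 w and aged mice of 78 w. The 3 d suspension held discs of both sexes and the other normal libraries came from males, so that sex and age cannot be told apart at 3 d. The injured group was labelled wild type as well, and its discs came from mice whose anterior band was punctured with a needle at 5 weeks, 2 weeks before collection. The study's methods describe the injury model in Myh11-CreER reporter mice, so the genotype of that library is given here as labelled. No uninjured library of the same age was analysed, so that age and injury cannot be told apart, and each disc library is a pool of digested tissue without replicate.

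TGF-beta ligands are secreted in a latent complex and, once freed, bind TGFBR2, which recruits a type I receptor and passes the signal to SMAD2 and SMAD3. BMPs and growth differentiation factors use other receptor pairs and signal mainly through SMAD1, SMAD5 and SMAD9, while gremlin and the chordin-like proteins bind BMPs outside the cell and keep them from their receptors. In joints, GDF5 marks the interzone from which articular tissues form, TGF-beta maintains cartilage and tendon matrix, and BMP2 and BMP4 drive chondrogenic and osteogenic differentiation.

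Cells were kept above 200 UMIs if no more than 30% of these were mitochondrial, which left 8467 to 14959 cells per library. Libraries held from 31585993 UMIs in the injured group to 125427849 at 3 w, and the median per cell was 3299 in the injured library against 7721 to 12496 in the normal ones. Pairs of libraries shared 19 to 39 barcodes. Clusters 1 to 3, with 6834 to 10818 cells per library, were stromal by their markers, and clusters named endothelial, mural, macrophage and synovial lining fibroblast are to be read as "-like". Levels are given as CPM, counts per 1e+06 UMIs of the class in that library. Intervals are exact 95% Poisson intervals, or exact conditional intervals for ratios, and cover counting error only. With 1 library per group no test was possible, so a ratio is called 2-fold only as a size, where the group with the higher CPM held at least 100 UMIs.

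The promoters of 3 ligands and an antagonist are shown first, of the 5 genes with a window. Tgfb1 and Tgfb2 were chosen because Tgfb1 was higher, and Tgfb2 lower, in macrophages and endothelial cells than in the stroma. Bmp4 and Grem1 were chosen because they went in opposite directions with age in different classes. Each line gives the 250 bases upstream of the annotated start, 5′ to 3′ on the strand of the gene, from RefSeq on GRCm38.p6. Capitals mark matches to 4 motifs, searched on either strand. The Smad box, a short element bound by SMAD proteins, is spelled CAGAC. The GC-rich element bound by SMADs of the BMP branch is spelled GGCGCC. The core promoter element named TATA box was searched as TATAAA. The box bound by the factor NF-Y was searched as CCAAT.
Tgfb1 (chr7:25686752-25687001, plus strand): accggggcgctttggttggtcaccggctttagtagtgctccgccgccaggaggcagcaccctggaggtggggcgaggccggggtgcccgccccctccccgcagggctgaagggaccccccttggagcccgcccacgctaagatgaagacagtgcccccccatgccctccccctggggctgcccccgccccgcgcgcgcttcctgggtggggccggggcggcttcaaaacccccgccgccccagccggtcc
Tgfb2 (chr1:186705990-186706239, minus strand): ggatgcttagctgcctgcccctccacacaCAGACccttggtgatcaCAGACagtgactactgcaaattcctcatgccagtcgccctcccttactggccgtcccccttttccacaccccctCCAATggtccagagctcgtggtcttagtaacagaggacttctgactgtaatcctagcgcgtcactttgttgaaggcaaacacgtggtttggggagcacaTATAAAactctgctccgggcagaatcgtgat
Bmp4 (chr14:46390670-46390919, minus strand): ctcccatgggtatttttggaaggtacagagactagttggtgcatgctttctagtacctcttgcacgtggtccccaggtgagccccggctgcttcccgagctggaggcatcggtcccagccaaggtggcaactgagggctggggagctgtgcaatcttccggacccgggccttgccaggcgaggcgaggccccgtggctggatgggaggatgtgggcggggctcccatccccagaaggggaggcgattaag
Grem1 (chr2:113758649-113758898, minus strand): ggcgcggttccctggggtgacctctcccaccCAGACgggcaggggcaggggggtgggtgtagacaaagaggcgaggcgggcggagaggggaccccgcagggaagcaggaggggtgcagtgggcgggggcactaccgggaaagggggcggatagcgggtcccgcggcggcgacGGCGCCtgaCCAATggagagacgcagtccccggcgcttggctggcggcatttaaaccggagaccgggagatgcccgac

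The Tgfb2 window held 1 TATA box, 2 Smad boxes and 1 NF-Y box at 53.6% G and C, and the Tgfb1 window held none of the 4 motifs at 75.2%. The Grem1 window held 1 Smad box, 1 GC-rich element and 1 NF-Y box, and the Bmp4 window held none at 63.2% G and C. Among 32851 windows of the same length, 12.4% held the TATA box, 42.2% the Smad box, 9.59% the GC-rich element and 33.8% the NF-Y box on either strand, and the median content of G and C was 52.4%. These matches are descriptions of the letters. The matches shown do not overlap. Windows were found for 5 of the 9 genes, Tgfbr2 being the other.

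Tgfb1 (ENSMUSG00000002603, chr7:25687002-25705077 of mm10 in GENCODE M21), the TGF-beta isoform made by most leukocytes and platelets, stood in stromal cells at 17.9 CPM at 3 d, 39.9 at 3 w, 46.5 at 16 w, 55.8 at 78 w and 41.3 after injury. The newborn disc was lowest and the aged disc highest, and the injured disc lay with the juvenile one. Over the newborn disc, the 3 w disc gave a ratio of 2.23 (2.11 to 2.36) and the 78 w disc 3.12 (2.96 to 3.30). The first of these was 1.72 over all retained cells of the libraries.

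Tgfb2 (ENSMUSG00000039239, chr1:186622792-186705989), the isoform known from mesenchyme and from tendon and joint development, stood at 140 CPM at 3 d, 243 at 3 w, 185 at 16 w, 137 at 78 w and 132 after injury. The juvenile disc was the high point. In the sums the newborn and aged discs could not be separated, with a ratio of 0.977 (0.954 to 1.00) that became 1.05 on the scale of the median gene. The stromal clusters differed in this, with cluster 1 at 167 CPM at 3 d and 128 at 78 w, and cluster 3 at 112 and 158. Cluster 2 stood at 164 and 162 CPM. No comparison of Tgfb2 in the stroma reached 2-fold. Its ratio was 1.74 (1.70 to 1.77) for 3 w over 3 d and 0.543 (0.524 to 0.562) for injured over 3 w.

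Tgfb3 (ENSMUSG00000021253, chr12:86056745-86079041), the isoform known for its part in palate fusion, stood at 54.8 CPM at 3 d, 94.99 at 3 w, 98.8 at 16 w, 60.8 at 78 w and 95.4 after injury. The 3 w, 16 w and injured libraries lay together above the newborn and aged ones. Injured and 3 w gave a ratio of 1.00 (0.963 to 1.05), while 78 w over 16 w gave 0.616 (0.595 to 0.637). The 3 TGF-beta isoforms thus had different time courses in the stroma, and in the sums none of them besides Tgfb1 was 2-fold apart between ages. With equal weight for the 3 stromal clusters, Tgfb3 at 3 w over 3 d was 2.03. In cluster 2 it stood at 55.8 CPM at 3 d, 142 at 3 w and 165 at 16 w.

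Bmp2 (ENSMUSG00000027358, chr2:133552159-133562885), an inducer of cartilage and bone, had the widest range of the ligands in this group. Its stromal level was 22.1 CPM at 3 d (2237 UMIs), 69.7 at 3 w, 211 at 16 w, 259 at 78 w (23455 UMIs) and 111 after injury. Each older normal library was higher than the one before, and the injured disc lay between the 3 w and the 16 w disc. The ratios were 3.15 (3.01 to 3.31) for 3 w over 3 d, 3.03 (2.95 to 3.11) for 16 w over 3 w, 1.22 (1.20 to 1.25) for 78 w over 16 w and 11.7 (11.2 to 12.2) for 78 w over 3 d. In the settings tried, the last of these lay between 8.37 and 12.6. A Bmp2 UMI was found in 12.9% of stromal cells at 3 d and 60.4% at 78 w, or in 1.93% and 17.7% with each cell thinned to 1000 UMIs. In endothelial cells the thinned shares were 1.33% and 5.43%, and the CPM there at 78 w was 0.318 times that of the stroma.

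Bmp4 (ENSMUSG00000021835, chr14:46383520-46390669), a BMP of embryonic joint and skeletal tissue, stood in the stroma at 19.2 CPM at 3 d, 43.0 at 3 w, 44.4 at 16 w, 26.0 at 78 w and 54.8 after injury. In the sums the injured library was the highest and the newborn one the lowest. The juvenile disc was at 2.24 (2.13 to 2.36) times the newborn one, and this was 1.67 when clusters were formed without integration and 1.78 over all retained cells. The aged disc was at 0.587 (0.557 to 0.618) of the adult one and the injured disc at 1.23 (1.16 to 1.31) times the adult one. With equal cluster weight, injured over adult was 0.963. Only cluster 1 was higher after injury than at 16 w, at 66.6 against 45.2 CPM. Cluster 2 stood at 37.1 against 42.6 CPM and cluster 3 at 20.7 against 41.5.

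Gdf5 (ENSMUSG00000038259, chr2:155941023-155945367), the joint interzone factor, was scarce at every age, with 2.61 CPM at 3 d (264 UMIs), 1.72 at 3 w (194), 4.56 at 16 w (365), 5.10 at 78 w (462) and 2.62 after injury (73). The adult and aged discs were above the other 3, and their intervals overlapped. The ratio of 16 w to 3 w was 2.65 (2.22 to 3.17). Over 3 d the aged disc gave 1.95 (1.68 to 2.28), which was 1.04 when the 3 stromal clusters were given equal weight.

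Tgfbr2 (ENSMUSG00000032440, chr9:116084293-116175360), the type II receptor that all 3 TGF-beta ligands use, differed little between libraries in the summed stroma. It stood at 58.9 CPM at 3 d, 57.4 at 3 w, 58.7 at 16 w, 69.4 at 78 w and 58.0 after injury. All but the aged library lay between 57.4 and 58.9 CPM with overlapping intervals, and the aged disc was at 1.18 (1.14 to 1.22) times the newborn one. With the 3 stromal clusters given equal weight this last ratio was 1.72, so that the small difference holds only for the sums.

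Grem1 (ENSMUSG00000074934, chr2:113746164-113758646) codes for gremlin 1, which binds BMP2 and BMP4. Its stromal level was 21.5 CPM at 3 d (2175 UMIs), 7.27 at 3 w (820), 5.12 at 16 w (410), 2.27 at 78 w (206) and 2.65 after injury (74). In the sums every older normal library was lower than the one before, and the injured and the aged disc had overlapping intervals. With equal cluster weight, 16 w over 3 w was 1.04 in place of 0.704. The aged over the newborn disc gave 0.106 (0.0912 to 0.122), a 9.46-fold lower level. A Grem1 UMI was found in 10.0% of stromal cells at 3 d, 4.18% at 3 w, 2.40% at 16 w, 0.889% at 78 w and 0.805% after injury. With each cell thinned to 1000 UMIs the shares were 1.93%, 0.443%, 0.340%, 0.181% and 0.291%, so that the order of the aged and injured discs depends on depth. At 78 w the 206 UMIs came from 74 cells, with 54 UMIs in a single cell, so that few cells set that level.

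Chrdl1 (ENSMUSG00000031283, chrX:143285674-143394262) codes for chordin-like 1, also called ventroptin, an antagonist of BMP4. It stood in the stroma at 14.9 CPM at 3 d, 95.1 at 3 w, 147 at 16 w, 96.1 at 78 w and 54.5 after injury. The adult disc was highest, the juvenile and aged discs had overlapping intervals, and the newborn disc was lowest. The ratio was 6.41 (6.07 to 6.76) for 3 w over 3 d and 6.47 (6.12 to 6.84) for 78 w over 3 d. The injured disc was at 0.371 (0.352 to 0.392) of the 16 w disc and at 0.573 (0.542 to 0.604) of the 3 w disc. The 2 antagonists thus had opposite courses between the newborn and the older discs.

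**Figure D1:**
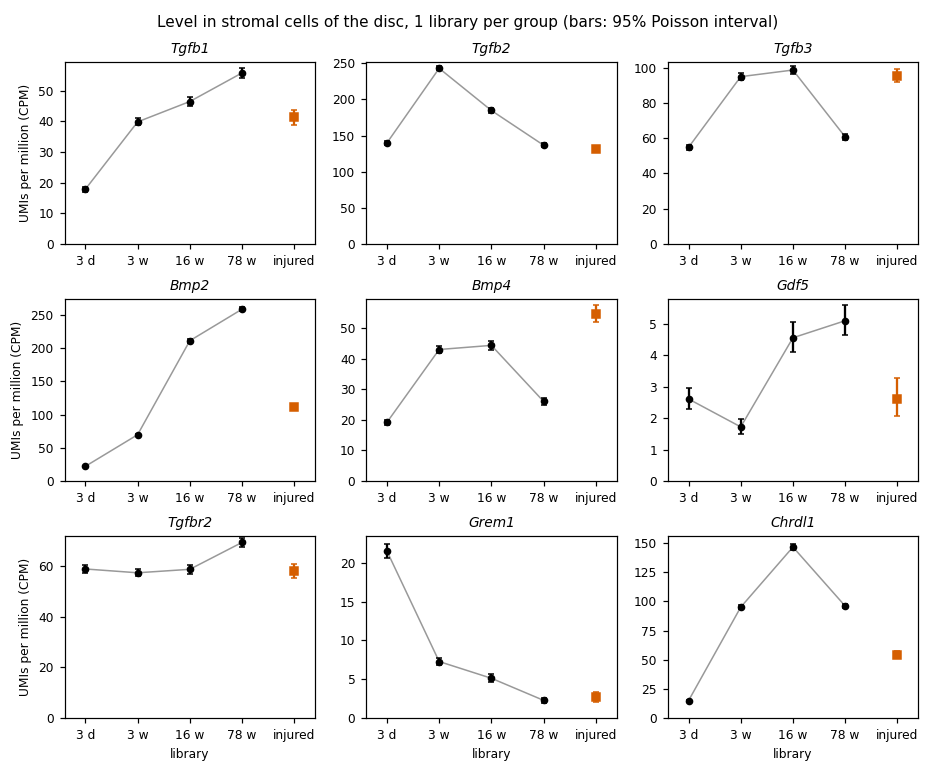
Level of each gene in stromal cells, in CPM (vertical axis, from 0, each panel on its own scale), by library (horizontal axis). Black points joined by a line are the 4 normal libraries, the square is the injured one, and bars are 95% Poisson intervals. Bmp2 climbs from 22.1 to 259 CPM while Grem1 drops from 21.5 to 2.27 and Tgfbr2 stays between 57.4 and 69.4.

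Of the 9 genes, all of which had at least 100 UMIs in the higher group in the comparisons of normal discs, 5 were 2-fold apart between 3 w and 3 d. Tgfb1, Bmp2, Bmp4 and Chrdl1 were higher and Grem1 lower at 3 w, against 35.3% of the 12992 genes compared. With equal cluster weight, Gdf5 (0.381) and Tgfb3 (2.03) passed 2-fold as well. Between 78 w and 3 d, which shares the newborn library with the first comparison, 4 were 2-fold apart, with Tgfb1, Bmp2 and Chrdl1 higher and Grem1 lower, and again 35.3% of genes. Between 16 w and 3 w, Bmp2 and Gdf5 were 2-fold higher against 11.0% of genes, and between 78 w and 16 w only Grem1 was 2-fold apart, lower, against 3.33%. That call was lost over all retained cells (0.815), which include mural cells with 232 Grem1 UMIs at 78 w. It was also lost with equal cluster weight (0.798) and when the whole interval had to pass. After thinning (0.491) fewer than 100 UMIs were left. Differences of 2-fold were common among all genes between the newborn and the older discs. The 9 genes were chosen with earlier results of these data known, so the counts and medians over them are descriptions only. The median log2 ratio over the 9 was 0.80, 0.06, -0.43 and 0.44 for 3 w over 3 d, 16 w over 3 w, 78 w over 16 w and 78 w over 3 d, where that over all genes compared was -0.04, -0.10, -0.06 and -0.17.

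Other transcripts moved with age in the same stromal sums. The cycling markers (4 of 4 detected) summed to 174 CPM at 3 d and 1.32 to 3.85 in the older normal discs. The chondrocytic markers (6 of 6) summed to 359 CPM at 3 d and 1966 to 4284 later. The synovial lining markers (6 of 6, among them Prg4, which disc stroma also makes) went from 219 CPM at 3 d to 12269 at 78 w. Endothelial markers (6 of 6) stayed between 8.77 and 28.5 CPM, and macrophage markers (6 of 6) between 10.5 and 55.6, the highest after injury. Of 7 markers of other leukocytes, 4 to 6 had UMIs, summing to 2.90 to 5.89 CPM, with the T-cell gene Cd3e at 0 in all 5 libraries. Erythroid markers summed to 1294 CPM at 3 d and 3.96 to 33.0 in the older normal discs, and skeletal muscle markers to 48.9 and 5.05 to 6.38. Tenocyte markers went from 954 CPM at 3 d to 6057 at 78 w and Schwann cell markers from 18.8 to 118. Their part in the levels above was not tested. Doublets were kept, and without the cells of the highest Scrublet scores the calls in the normal discs had the same count.

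The 3 stromal clusters differed in which ligand or antagonist they held. Cluster 1 was led by Lcn2, Ibsp, Cytl1 and Chad, cluster 2 by Coch, Spp1, Kera and Scx, and cluster 3 by Pi16, Clec3b, Mfap4 and Sfrp2. Cluster 3 held 4482 of 10818 stromal cells at 3 d and 654 to 926 cells in each of the other libraries, so that its weight in the sums differed with age. The pathway genes among the integration features, 35 in all, were left out of the clustering. No test was made between clusters.

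Bmp2 stood at 19.2, 21.1 and 24.0 CPM in clusters 1, 2 and 3 at 3 d, and at 307, 127 and 104 CPM at 78 w. All 3 clusters were higher in the aged disc, and cluster 1 was the highest from 3 w on, when it stood at 76.9 CPM against 48.4 and 60.9. Gdf5 was highest in cluster 1 in all 5 libraries, with 6.08 CPM at 78 w against 3.24 in cluster 2 and 0.740 in cluster 3. Tgfb3 was alike in the 3 clusters at 3 d (53.2, 55.8 and 54.8 CPM), and at 16 w cluster 2 held 165 CPM against 76.1 in cluster 1 and 138 in cluster 3.

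Tgfbr2 had another order, with cluster 3 the highest in all 5 libraries, from 76.7 CPM at 3 d to 140 at 78 w. In cluster 1 it was 44.1 CPM at 3 d and 56.5 at 78 w, and in cluster 2 it was 42.2 and 83.9 CPM. Chrdl1 was highest in cluster 2 from 3 w on, with 246 CPM at 16 w against 119 in cluster 1 and 148 in cluster 3. At 3 d cluster 3 was highest, with 5.80, 12.2 and 20.3 CPM in clusters 1, 2 and 3.

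Grem1 was highest in cluster 1 at 3 d, at 41.4 CPM, with 26.0 in cluster 2 and 10.6 in cluster 3. Clusters 1 and 2 stood at 1.85 and 1.03 CPM at 78 w, where cluster 3 was at 7.08 with 67 UMIs. The lower level at 78 w than at 16 w was therefore seen in clusters 1 and 2 only, and cluster 3 was at 0.332 CPM (2 UMIs) at 16 w. A single stromal cell at 78 w held 54 Grem1 UMIs, and its cluster is not given here. The cluster 3 level, and with it the ratio at equal weight, may therefore rest on 1 cell. With equal weight for the 3 clusters, the ratio of 78 w to 16 w was 0.798 in place of 0.444. Between 3 w and 16 w cluster 2 went the other way from the sums, from 1.40 CPM (33 UMIs) to 7.10 CPM (115 UMIs). Bmp4 at 3 d was highest in cluster 3, at 30.2 CPM against 11.0 and 8.43 in clusters 1 and 2, while after injury cluster 1 was highest, at 66.6 CPM against 37.1 and 20.7.

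**Figure D2:**
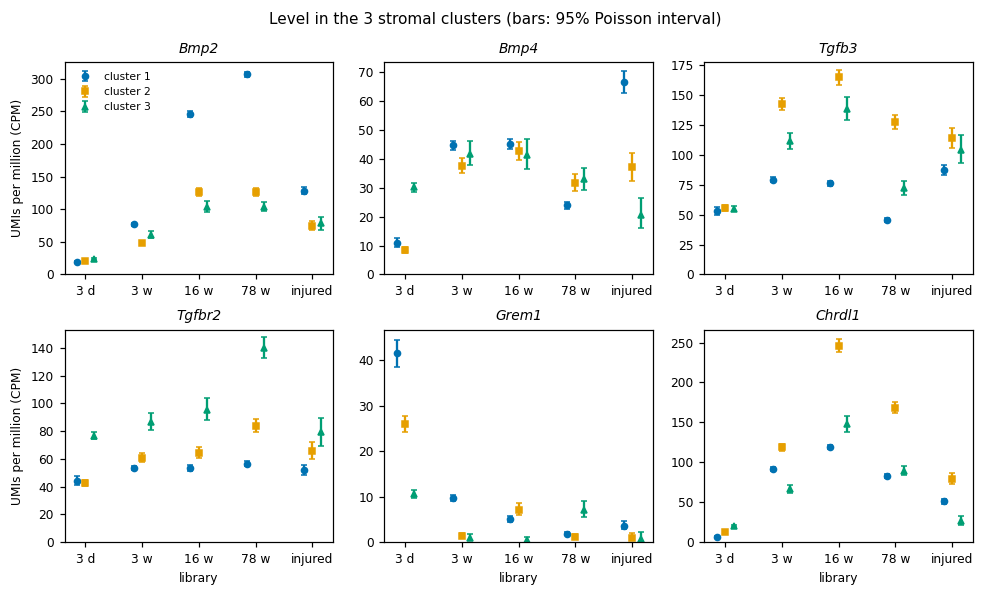
Level of 6 genes in stromal clusters 1 to 3 (symbols), in CPM (vertical axis, from 0) by library (horizontal axis), with 95% Poisson intervals as bars. Bmp2 is highest in cluster 1 from 3 w, Chrdl1 and Tgfb3 are highest in cluster 2 from 3 w, and Tgfbr2 is highest in cluster 3 throughout.

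Outside the stroma the levels were read against free RNA, which gives UMIs in cells that do not make a transcript. The 5 stromal reference genes Dcn, Col1a1, Comp, Prg4 and Chad had levels in endothelial cells that were 0.138 to 0.369 times those in the stroma of the same library. In mural cells these ratios were 0.109 to 0.392, and in macrophages 0.0786 to 0.637. Tgfb2 in macrophages (0.0652 to 0.268 times the stroma) and Bmp4 in mural cells (0.0530 to 0.286) were below the highest reference ratio of their own library in all 5 libraries. This cannot tell free RNA from a low level made by the cells. Endothelial Tgfb3 (0.217 to 0.289) passed it in 2 of 5 libraries, at 3 w (0.273 against 0.189) and after injury (0.289 against 0.251). Chrdl1 passed it in 1 library each, in endothelial cells at 3 w (0.264 against 0.189) and in macrophages at 3 d (0.340 against 0.272). In macrophages, Bmp4 (0.199 to 0.407) and Tgfb3 (0.203 to 0.315) also passed it in 1 or more libraries. No expression is read from these low values.

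Tgfb1 had a higher CPM in macrophages, endothelial cells, mural cells and synovial lining fibroblasts than in the stroma in every library. Macrophages held 149, 185, 172, 166 and 117 CPM at 3 d, 3 w, 16 w, 78 w and after injury, which is 2.83 to 8.33 times the stroma. Endothelial cells held 112, 172, 91.7, 115 and 111 CPM, which is 1.97 to 6.27 times the stroma. The gap was widest at 3 d in both classes, when the stromal level was lowest. Tgfb2 had the opposite distribution, with endothelial cells at 0.334 to 0.445 times the stroma, mural cells at 0.594 to 0.832 times and synovial lining fibroblasts at 0.171 to 0.380 times. In endothelial and mural cells Tgfb2 was above the highest reference ratio of the same library in all 5 libraries.

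Tgfbr2 was higher than in the stroma in endothelial cells (1.36 to 2.10 times), macrophages (1.36 to 2.03 times) and synovial lining fibroblasts (1.53 to 1.96 times). In mural cells it was lower in every library, at 0.320 to 0.918 times the stroma. In macrophages its level was 80.2 CPM at 3 d and 128 CPM at 78 w, a ratio of 1.60 (1.38 to 1.85). Tgfb3 in mural cells stood at 54.7, 69.01, 109, 88.2 and 58.8 CPM in the same order of libraries, from 0.616 to 1.45 times the stroma. Mural Chrdl1 stood at 2.88, 32.7, 70.6, 58.0 and 15.5 CPM, from 0.194 to 0.604 times the stroma. Its highest ratio was that at 78 w, where the reference genes reached 0.360 in mural cells. The part of free RNA in it was not tested.

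Bmp2 in synovial lining fibroblasts, the cells that secrete lubricin and hyaluronan into the joint, was already 153 CPM at 3 d, when the stroma was at 22.1 CPM. It stood there at 195 CPM at 3 w, 236 at 16 w, 128 at 78 w and 150 after injury. The lining was 6.92 times the stroma at 3 d and 0.494 times at 78 w, so the order of the classes turned between the newborn and the aged disc. Lining markers in this class summed to 5105 CPM at 3 d and 85856 at 78 w, and whether both ages hold the same cell type was not tested. Endothelial Bmp2 was 20.1 CPM at 3 d and 102 CPM at 3 w, a ratio of 5.11 (4.27 to 6.14), where 16.8% of the 7731 genes compared in endothelial cells were at least 2-fold higher. After injury it stood at 149 CPM, 2.06 (1.65 to 2.56) times the 16 w level, against 2.93% of genes higher. Against the 3 w level the ratio was 1.45 (1.18 to 1.76), which is not 2-fold. Between 78 w and 3 d, Bmp2 was also 2.56 (2.12 to 3.097) times higher in mural cells, against 15.6% of genes, and 2.76 (2.25 to 3.39) times in macrophages, against 11.8%. At 78 w macrophage Bmp2 was 0.357 times the stroma, where the reference genes reached 0.233 in that library, and endothelial Bmp2 was 0.318 times, where they reached 0.220. The part of free RNA in these levels was not tested.

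Bmp4 had its highest level of any class in the newborn synovial lining, and its course there was the reverse of that in endothelial cells. The lining held 191 CPM at 3 d (809 UMIs in 472 cells), 71.8 at 3 w (95 UMIs in 85 cells), 56.6 at 16 w (90 UMIs), 21.8 at 78 w (116 UMIs) and 48.5 after injury (40 UMIs). Endothelial cells held 9.39 CPM at 3 d (73 UMIs), 45.0 at 3 w (245), 66.9 at 16 w (253), 64.7 at 78 w (255) and 32.4 after injury (27). The newborn disc was thus highest in the lining and lowest in the endothelium, and the intervals of the 3 d and 78 w libraries did not overlap in either class. The 78 w level was 0.114 (0.0933 to 0.139) times the 3 d level in the lining, where 9.4% of the 6022 genes compared were at least 2-fold lower. The 3 w level was already 0.377 (0.301 to 0.466) times the 3 d one, against 14.3% of genes. The ratio of 78 w over 3 d was 6.89 (5.29 to 9.07) in endothelial cells, where 12.6% of the 7198 genes compared were at least 2-fold higher. Endothelial Bmp4 went from 0.489 to 2.49 times the stromal level of the same library, above the highest reference ratio of the same library in all 5. After injury it was at 0.484 (0.313 to 0.721) of the 16 w level, where 19.1% of genes were at least 2-fold lower. Against the 3 w level it was at 0.719 (0.464 to 1.07), an interval that holds 1. Each of these levels comes from 1 library, and the difference between the classes was not tested. The newborn lining class rests on the integration. Synovial lining markers in it summed to 5105 CPM at 3 d and to 45892 to 85856 CPM in the other libraries. Without integration, the cluster led by Clic5, Prg4 and F13a1 held 0 cells at 3 d and 264 at 78 w. Whether the class holds the same cell type at each age was not tested.

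In mural cells, the smooth muscle cells and pericytes of vessel walls, Grem1 UMIs were found in few cells. The class held 14 UMIs at 3 d (4.48 CPM), 0 at 3 w (which allows up to 1.09 CPM for 3 counts), 72 at 16 w (33.9 CPM), 232 at 78 w (115 CPM) and 0 after injury (up to 9.28 CPM). The adult and aged libraries were above the other 3 in CPM, with a ratio of 78 w to 16 w of 3.40 (2.60 to 4.49), where 0.829% of the 3135 genes compared in mural cells were at least 2-fold higher. The interval takes UMIs as independent and does not cover the spread between the few cells that held them. A Grem1 UMI was found in 2.50% (0.923 to 5.36) of mural cells at 16 w and 3.60% (1.74 to 6.52) at 78 w, with overlapping intervals. In the same 78 w library the mural level was 50.6 times the stromal one.

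The 72 mural UMIs at 16 w came from 6 of 240 cells and the 232 at 78 w from 10 of 278 cells, with 59 UMIs in the highest cell. All lay in the finer mural cluster 13, and the other mural cluster, 17, held no Grem1 UMI in any library. Cluster 13 was led by Rgs5, Ccl11, Myh11 and Tagln, and cluster 17 by Myh11, Tagln, Acta2 and Rgs5. The 10 cells at 78 w all had UMIs of the smooth muscle genes Myh11 (3980 CPM), Acta2 (6541 CPM) and Tagln (11323 CPM). The pericyte gene Rgs5, the first of the genes leading cluster 13, was at 7.71 CPM in them. It was at 5614 CPM in the 268 mural cells of that library without Grem1, which come from both finer clusters. The 10 cells thus differed in this gene from the other mural cells, and its level within cluster 13 alone is not given here. They held no UMI of the endothelial gene Pecam1 or the leukocyte gene Ptprc, and 2 of the 10 had a high Scrublet score. At 3 d the 14 UMIs came from 8 cells, all of which had a high Scrublet score, with Dcn at 2184 CPM against 611 CPM in the other mural cells. These cells were picked by their Grem1 UMIs after the values were seen.

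**Figure D3:**
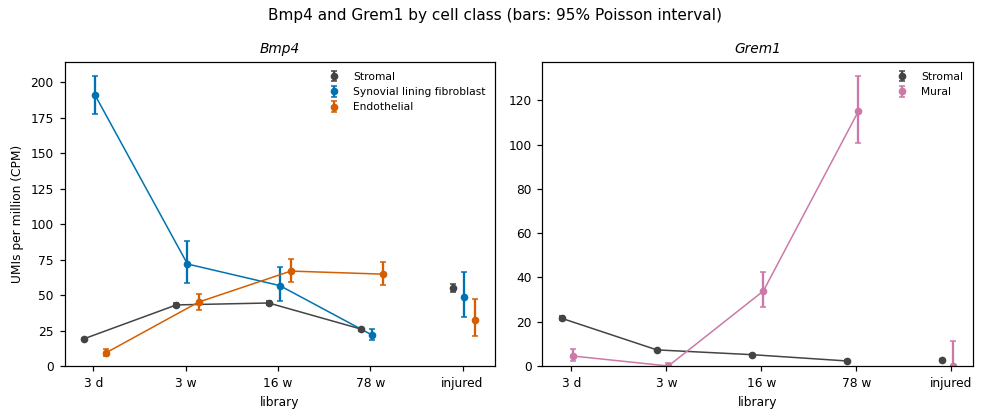
Level of Bmp4 (left) and Grem1 (right) in CPM (vertical axis, from 0) by library (horizontal axis) in the cell classes named in the legends, with 95% Poisson intervals as bars and lines joining the normal libraries. Bmp4 goes from 191 to 21.8 CPM in the synovial lining and from 9.39 to 64.7 in endothelial cells, and Grem1 in mural cells reaches 115 CPM at 78 w.

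**Figure D4:**
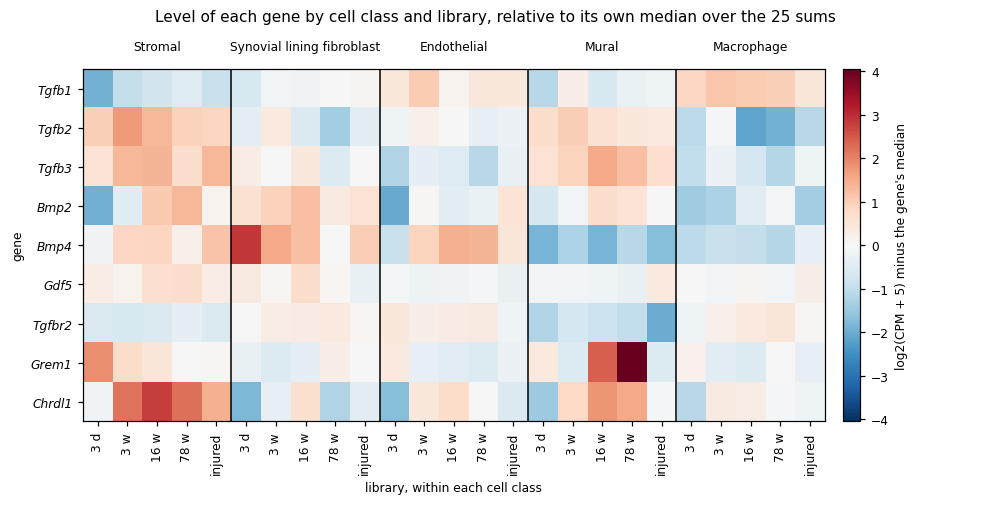
Level of each gene (rows) by cell class and library (columns), as log2(CPM + 5) minus the gene's own median over the 25 sums, so that colours compare cell classes and libraries within a row and not genes. Tgfb1 is highest in macrophages and endothelial cells, Tgfb2 and Chrdl1 in the stroma, Bmp4 in the newborn synovial lining and Grem1 in mural cells at 78 w.

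After injury, 1 of the 8 genes with enough UMIs was 2-fold apart from the 3 w stroma, Grem1 at 0.365 (0.284 to 0.463), against 22.5% of 11499 genes. Against the 16 w stroma only Chrdl1 was 2-fold apart, at 0.371, against 20.2% of 11293 genes. Bmp2 and Grem1 lay near the limit at 0.524 (0.504 to 0.545) and 0.518 (0.399 to 0.665). With each cell thinned to 1000 UMIs, Grem1 was at 0.562 of the 3 w and 0.743 of the 16 w stroma, so that its size depends on depth. These comparisons share the injured library, which was the shallowest, and most genes had lower CPM in it. The median log2 ratio over genes with at least 100 UMIs in both libraries was -0.27 against 3 w and -0.21 against 16 w, so that a ratio of 1 stands above the median of all genes. Scaled to that median, Chrdl1 was at 0.429 of the 16 w disc and Bmp4 at 1.43 times it. With equal cluster weight Bmp4 was at 0.963 of the 16 w disc, so that its direction depends on the weight of the clusters. Tgfb1 against 16 w was 0.888 as CPM and 1.03 on the median scale, Tgfb3 was 0.966 and 1.12, and Tgfbr2 was 0.988 and 1.14, so that the direction of these 3 depends on the scaling.

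The wider TGF-beta and BMP pathway was read from a list of 79 genes, the 9 among them. Of the 79, 78 had a row of their own and Ltbp4 did not. This list too was chosen with earlier results of these data known, so counts over it are descriptions only. In the stroma 18 were at least 2-fold higher and 17 lower at 3 w than at 3 d, of 72 with enough UMIs, where 16.3% of all genes were higher and 18.9% lower. Among the highest ratios were those of the Smad target Ctgf (31.9), the activin subunit gene Inhba (16.9), Chrdl1, Bmp6 (5.80) and the activin subunit gene Inhbb (5.20). The lowest were those of Fbn2, a fibrillin that binds latent complexes (0.0157), Bmp3 (0.0224), the matrix gene Postn (0.0229), the latency gene Ltbp2 (0.0562), the BMP modulator Bmper (0.0664) and Gdf6 (0.0759). By role, 7 of 15 ligands were higher and 4 lower, 2 of 14 antagonists were higher and 6 lower, and none of 12 receptors was lower while 3 were higher, to be read against the same shares of all genes.

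Between 78 w and 3 d, 23 pathway genes were higher and 13 lower of 73, against 14.2% and 21.1% of all genes. Inhba went from 4.71 to 396 CPM, a ratio of 83.9 (76.7 to 92.1), and Ctgf (66.0), Bmp6 (14.6), Gdf15 (13.6) and Bmp2 were also among the highest. Fbn2 (0.00362), Postn (0.00601), the antagonist Sostdc1 (0.0224), Bmp3 (0.0445), the follistatin-like gene Fstl1 (0.0869) and Grem1 were lowest. Between 16 w and 3 w, 13 were higher and 3 lower of 67, against 5.14% and 5.85% of all genes, with the BMP target Id2 (5.19), the antagonist Nog (4.75), the TGF-beta activator Thbs1 (3.98), Bmp2 and Ltbp2 (2.88) among the highest and Postn (0.0312), the target Hey1 (0.358) and Fbn2 (0.461) lower. Between 78 w and 16 w, 9 were higher and 2 lower of 71, against 2.0% and 1.33% of all genes. Postn (8.40), the antagonist Chrdl2 (4.52), Lrrc32, which tethers latent TGF-beta (3.79), Bmp5 (3.73), Bmp7 (2.72) and Inhba (2.67) were highest, and Thbs1 (0.207) and Grem1 were the lower ones. Among receptors, 2 of 12 were apart between 78 w and 3 d, none between 16 w and 3 w and none between 78 w and 16 w. Among Smad genes and regulators these counts were 5, 1 and 0 of 14.

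After injury the counts over the list differed with the scaling, which shifts all genes alike. As CPM, against 16 w, 5 were higher and 17 lower of 66, and against 3 w, 9 were higher and 12 lower of 65, where among all genes 5.79% were higher and 14.4% lower in the first comparison and 4.97% higher and 17.5% lower in the second. Scaled to the median gene, 8 were higher and 15 lower against 16 w, and 10 higher and 7 lower against 3 w. The shares of all genes on that scale are not given here, so these counts are not read as a result about the list. Postn was at 160 CPM after injury, 1.56 CPM at 16 w and 49.98 CPM at 3 w. Chrdl2 was 4.52 times the 16 w and 4.24 times the 3 w level, and Gdf10 2.27 and 3.25 times. Against 16 w, Fbn2 (2.76) and Fstl1 (2.60) were also higher, and Thbs1 (0.105), Ctgf (0.174), the TGF-beta effector Smad3 (0.185), Inhbb (0.227), Nog (0.238) and the BMP target Id3 (0.267) were lowest. Against 3 w, Ltbp2 (3.03), Id2 (2.86) and Gdf11 (2.57) were higher, and Hey1 (0.208), Smad3 (0.332), the receptor genes Acvr2b (0.360) and Bmpr1b (0.400), Grem1 and Ctgf (0.400) were lowest. The median log2 ratio of the list was -0.45 against 16 w and -0.14 against 3 w, and that of all genes compared was -0.31 and -0.37.

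**Figure D5:**
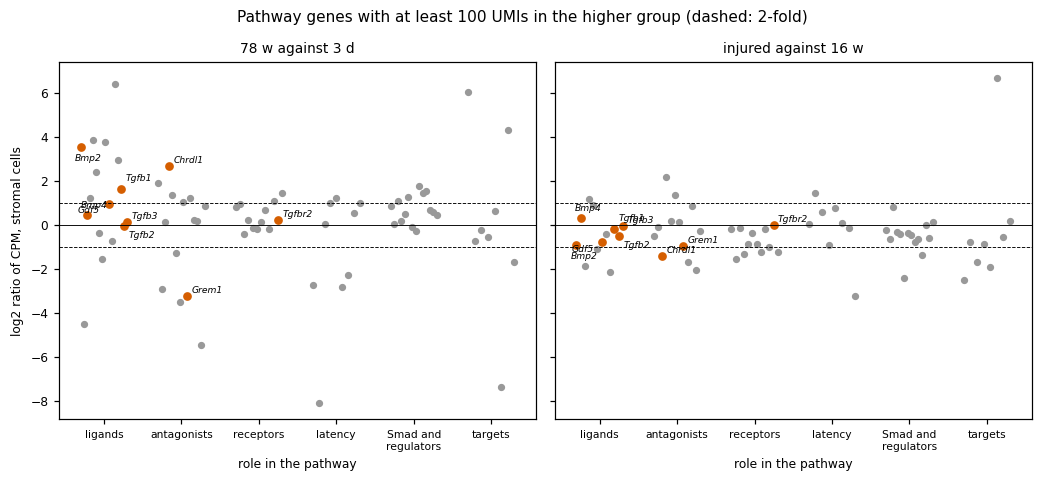
Log2 ratio of CPM in stromal cells (vertical axis) of pathway genes with at least 100 UMIs in the higher group, by role (horizontal axis), for 78 w over 3 d (left) and injured over 16 w (right). Coloured, named points are the 9 genes described here and dashed lines mark 2-fold. Of the list, 23 genes are higher and 13 lower on the left, and 5 higher and 17 lower on the right.

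The genes whose levels were most like each of the 9 were found by Pearson's r of log2(CPM + 5) over the 33 sums of a class in a library with at least 50 cells. The sums share libraries, depth and cell classes, so r is a description. Tgfb1 was nearest to H2-D1 (0.906), Atp2b1 (0.900) and B2m (0.891), and Tgfbr2 to Zmiz1 (0.879), Wasf2 (0.877) and Sppl2a (0.876). Tgfb2 was nearest to Bag2 (0.846), Nedd4 (0.841) and Sgce (0.825), and Tgfb3 to Pdzrn3 (0.896), Samd4 (0.869) and Cacna1g (0.854). Bmp2 was nearest to Errfi1 (0.841), Dmkn (0.825) and Kpna1 (0.817), Bmp4 to Lbp (0.779), Lnx1 (0.754) and Cgnl1 (0.753), and Gdf5 to P2rx6 (0.792), Zfp385c (0.736) and Wdr54 (0.712). Among the antagonists, Chrdl1 was nearest to Kif21a (0.900), Myoc (0.881) and Cpxm2 (0.875), and Grem1 to Angpt1 (0.803), Lamc3 (0.795) and Col4a6 (0.779).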

How the data were processed

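Single-cell 3′ libraries of digested TMJ discs were counted by the authors with Cell Ranger on mm10 (3.1 in the submitters' processing notes, 4.0.0 in the matrix headers), and the deposited values are raw UMI counts per gene and barcode. Cells were kept above 200 UMIs if no more than 30% of these were mitochondrial, and doublets were not removed. Cells were integrated and clustered in R 4.3.3 with Seurat 5.3.0 (2000 features, 30 dimensions, resolution 0.2), without 35 pathway genes among the features, and named from markers. UMIs were summed by class and library in Python 3.11.15 with pandas 2.3.3 and scipy 1.17.1. Since the unit is 1 library per group, no test was made. The ratio and its interval were checked on simulated Poisson totals of stromal genes. No cells were simulated, so the check covers neither the summing nor UMIs gathered in few cells. Doublet scores came from Scrublet in scanpy 1.11.5. Pathway genes were named where they had the 6 highest or 6 lowest ratios among those at least 2-fold apart with at least 100 UMIs, except that some of these are not reported here. The members and lists were chosen with earlier results of these data known. Alternatives were stricter cell filters, other clusterings, thinning to 1000 UMIs, equal cluster weight, all cells, the mean per cell and the median of ratios.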

Additional observations from a re-analysis of the deposited data

Results flagged for a closer look

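For 2 genes, cell classes of the same libraries were called 2-fold apart in opposite directions. Opposite differences below 2-fold in either class are not counted here. In each case the difference between the classes was not tested, since there was 1 library per group. Bmp4 at 3 w was 2.24 times its 3 d level in stromal cells and 4.79 times in endothelial cells, and 0.377 times in synovial lining fibroblasts. At 78 w it was 6.89 times the 3 d level in endothelial cells and 0.114 times in the lining. The lining values depend on the integration, without which the cluster led by lining genes held 0 cells at 3 d. Grem1 at 78 w was 3.40 times its 16 w level in mural cells and 0.444 times in stromal cells, and against 3 d it was 25.7 times in mural and 0.106 times in stromal cells. The mural values rest on 10 cells at 78 w, 6 at 16 w and 8 at 3 d. Without the cells of the highest Scrublet scores, mural Grem1 had 0 UMIs at 3 d. Its level at 78 w was then 106.5-fold that of a floor of 3 counts in the 3 d library. With each cell thinned to 1000 UMIs it was 9.646-fold that floor. The lower limits of the 2 ratios, for counting error only, were 85.9 and 7.23. The stromal difference between 78 w and 16 w did not pass 2-fold with equal cluster weight (0.798). Over all retained cells, which include the mural ones, the ratio was 0.815.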

How the results depend on the processing

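No paired analysis was possible because each group had 1 library, and for the same reason no library could be left out. Alternatives for classes other than the stroma were chosen after seeing the data. Of the 9 genes, 3 were 2-fold apart between 3 w and 3 d over all retained cells, 1 between 16 w and 3 w after thinning, and 0 between 78 w and 16 w after thinning, over all cells, with equal cluster weight, or when the whole interval had to pass. With equal cluster weight, Gdf5 (0.381) and Tgfb3 (2.03) also passed 2-fold between 3 w and 3 d. For injured against 3 w it was 0 after thinning. For injured against 16 w it was 2 without the highest Scrublet scores, at resolution 0.5, over all cells and with equal weight. The second gene was Grem1, at 0.477, 0.481, 0.454 and 0.414. With each cell thinned to 1000 UMIs, Grem1 was at 0.743 of the 16 w and 0.562 of the 3 w level. Pathway genes apart were 6 between 78 w and 16 w after thinning, and for injured against 3 w 13 after thinning and 33 with no filter on UMIs. Thinning and the filter also change how many genes can be called at all. The shares of all genes under these settings are not given here, so the counts show only how the calls depend on the setting. No call reversed. Between settings, stromal Bmp4 at 78 w over 3 d ranged from 1.00 to 1.84. Grem1 at 78 w over 16 w ranged from 0.410 in the stroma to 0.815 over all retained cells, which include the mural cells. Endothelial Bmp4 at 78 w over 3 d ranged from 4.61 to 9.99. No synovial lining cluster could be named without integration, and the cluster led by Clic5, Prg4 and F13a1 then held 0 cells at 3 d. The injured library had the fewest UMIs, which limits low genes such as Gdf5 and Grem1 there. The causes of these changes were not tested.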
